A study of Mus musculus with 6 samples.

Results

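Genes of ubiquitin conjugation and ligation were followed in the maxillary arch mesenchyme of mouse embryos that lack the LIM-homeodomain transcription factors Lhx6 and Lhx8. The 10 genes comprise 2 ubiquitin-conjugating enzymes (Ube2h and Ube2r2), 7 ubiquitin ligases (Ube3a, Herc6, Ubox5, Ubr7, Rnf103, Rnf220 and Trim23) and 1 adaptor, Nub1. All 10 were taken from the authors' deposited table of 1061 selected probe sets, out of 45101 on the array, a share of 2.35%. Each is represented there by 1 probe set. The authors had selected those probe sets by an unadjusted p under 0.05 and a minimum fold between its wild-type and double mutant columns, so the direction and size of the differences below are a description of genes picked for differing, and no test is attached to them. Any other probe set of the 10 genes on the array was not examined. Each of their differences is therefore that of 1 probe set, not of the whole gene.

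Expression was measured on Affymetrix mouse genome arrays in tissue taken at embryonic day 10.5 by laser microdissection of the territory in which both Lhx genes are normally active. There were 3 wild-type and 3 Lhx6-/-; Lhx8-/- arrays, all from female embryos of matched somite count, whose mixed background drew on the CD-1, C57BL/6J and 129 strains. Both alleles of both genes are mutated in the double mutants, and the labels do not say which part of each gene was removed. The 2 deposited tables hold intensities on different scales: the table of selected probe sets, which has gene names, and a value table of all probe sets, which has none.

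The tissue is bulk, so fewer cells of a type and less RNA per cell cannot be told apart in any value below. Lhx8 intensity in the table of selected probe sets was 8628, 8976 and 9493 in wild type and 5177, 2711 and 3177 in the double mutants, so signal remained in the mutants, and Lhx6 itself is not among the names. The same probe set had, in the value table, 2063.3, 1991.6 and 2240.5 in wild type and 2036, 699.3 and 910.5 in the double mutants. The array labelled double mutant 1, the first of each 3, was therefore within the wild-type range for Lhx8 in the value table, which goes against its label, and was the highest of the 3 double mutants in both tables. The files do not say whether the probe set lies in the deleted part of Lhx8, so the genotype could not be checked further. The array is kept in the group its label gives, every direction below includes it, and values without it are given. It also stood apart from the other 5 in RNA and signal measures. For Actb its 3' signal was 24.8 times its 5' signal, against 1.62 to 1.85 times on the others, and its log2 intensities correlated with theirs at 0.887 to 0.91, against 0.979 to 0.99 among the others. Among fixed cell type markers, 4 of 17 mesenchyme markers (Barx1, Lhx8, Msx1 and Pdgfrb) and 3 of 12 neuron and glia markers (Foxd3, Ngfr and Sox10) are named in the table. Barx1, Lhx8 and Msx1 were lower and Pdgfrb higher in the double mutants, and the summed intensity of these 4 mesenchyme markers was 16167 to 16610 in wild type and 8609 to 11336 in the double mutants. Without Lhx8 the sum was 6674 to 7635 against 5432 to 6285. The 4 probe sets of the neuron and glia markers, all higher, summed to 234 to 264 in wild type and 540 to 595 in the double mutants. Most of this sum was 1 Ngfr probe set, with means of 190.58 and 414.23, and Sox10 and Foxd3 were dim. Of 9 muscle markers 1, Msc, is named, at 41.5 to 50.1 against 54.4 to 68.1. The named markers passed the same selection, so each separates the groups by that choice, and the other markers of these lists could not be included. The part that these marker differences have in those of the ubiquitin genes was not tested. No epithelial, endothelial or blood marker is named there, so those cell types could not be checked.

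Ubiquitin is attached to proteins in a relay. An activating enzyme passes it to a conjugating enzyme (E2), and a ligase (E3) selects the substrate. Ligases with a HECT domain take ubiquitin onto a cysteine of their own before passing it on, whereas RING and U-box ligases hold the loaded E2 next to the substrate. The conjugates are often degraded by the proteasome, and the related modifiers NEDD8 and ISG15 use parallel relays. In the file's own annotation all 10 genes carry the term protein ubiquitination, which 1.04% of the listed probe sets carry, and 5 (Ubox5, Ubr7, Rnf103, Rnf220 and Trim23) carry zinc ion binding, against 9.52% of the listed probe sets.

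The promoters of Ube3a and Ube2h are shown because these genes had the largest differences of the 10 in the lower and the higher direction. Each line gives the 250 bases before a transcription start in RefSeq, build GRCm38.p6, read 5′ to 3′ along the gene's strand. Capitals mark 3 motifs and their reverse complements. The first is GGGCGG, the GC box that Sp1 binds. Another is TGACGTCA, the cAMP response element. The last is TATAAA, known as the TATA box. The Ube3a window lies on the plus strand at chr7:59228500-59228749. The outer and inner Ube2h windows lie on the minus strand at chr6:30304540-30304789 and chr6:30243804-30244053.
Ube3a: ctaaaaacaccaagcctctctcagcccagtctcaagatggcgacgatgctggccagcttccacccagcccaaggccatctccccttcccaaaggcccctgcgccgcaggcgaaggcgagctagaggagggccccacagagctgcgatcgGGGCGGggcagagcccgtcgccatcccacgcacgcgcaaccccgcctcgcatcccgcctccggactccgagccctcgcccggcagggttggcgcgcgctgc
Ube2h outer start: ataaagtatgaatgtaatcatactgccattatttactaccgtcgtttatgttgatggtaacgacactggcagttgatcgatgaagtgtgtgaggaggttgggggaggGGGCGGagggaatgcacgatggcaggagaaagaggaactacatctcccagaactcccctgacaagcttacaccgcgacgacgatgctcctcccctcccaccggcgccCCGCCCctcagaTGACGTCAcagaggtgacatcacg
Ube2h inner start: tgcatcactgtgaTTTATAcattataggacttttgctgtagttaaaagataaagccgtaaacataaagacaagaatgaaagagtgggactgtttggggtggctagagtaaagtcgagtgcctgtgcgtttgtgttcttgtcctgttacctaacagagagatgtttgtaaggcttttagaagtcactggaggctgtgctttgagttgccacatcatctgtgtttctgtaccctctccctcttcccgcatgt

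All 10 genes have windows in the RefSeq table, 11 in all, with Ube2h having 2. GGGCGG, searched on both strands, was present in 7 of the 11 windows (Ube2r2, Ube3a, Ubr7, Rnf103, Trim23, Nub1 and the outer Ube2h start), against 32.7% of 32851 windows of the same length. TAATTA, the core sequence that LIM-homeodomain proteins recognise, was in 0 of the 11, against 4.84% of all windows. TGACGTCA was in 1, the outer Ube2h window, against 1.55%, and TATAAA in 1, the inner Ube2h window, against 12.4%. CCAAT was in 4 of the windows, those of Ubox5, Ubr7, Rnf103 and Trim23, against 33.8%. GC content ran from 38.8% for Ubox5 to 80.4% for Ube2r2, with a median of 52.4% over all windows. Ube2r2 and Ubr7 each had 27 CpG dinucleotides in the window and Ube3a 24, while Herc6 had 1 and Rnf220 had 2; the upper quartile over all windows was 16. The genes are thus mixed in promoter type, and these counts say nothing of which factors bind.

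Of the 10 genes, 3 were higher and 7 lower in the double mutants in the table of selected probe sets. The authors' deposited table lists 60.8% of its probe sets as higher and 39.2% as lower. Among the ligases 1 was higher and 6 were lower, with a median log2 difference of -0.50; the conjugating enzymes split 1 and 1; and Nub1 was higher. The median over the 10 was -0.43, beside 0.38 over all listed probe sets, and without the array labelled double mutant 1 it was -0.40, beside 0.35, with the same 3 and 7. The groups did not overlap for any of the 10, as was so for 100% of the listed probe sets, so this separation follows from the selection. For the same reason leaving out an array could not change any direction here, and the unchanged 3 and 7 are no check of that array.

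**Figure D1:**
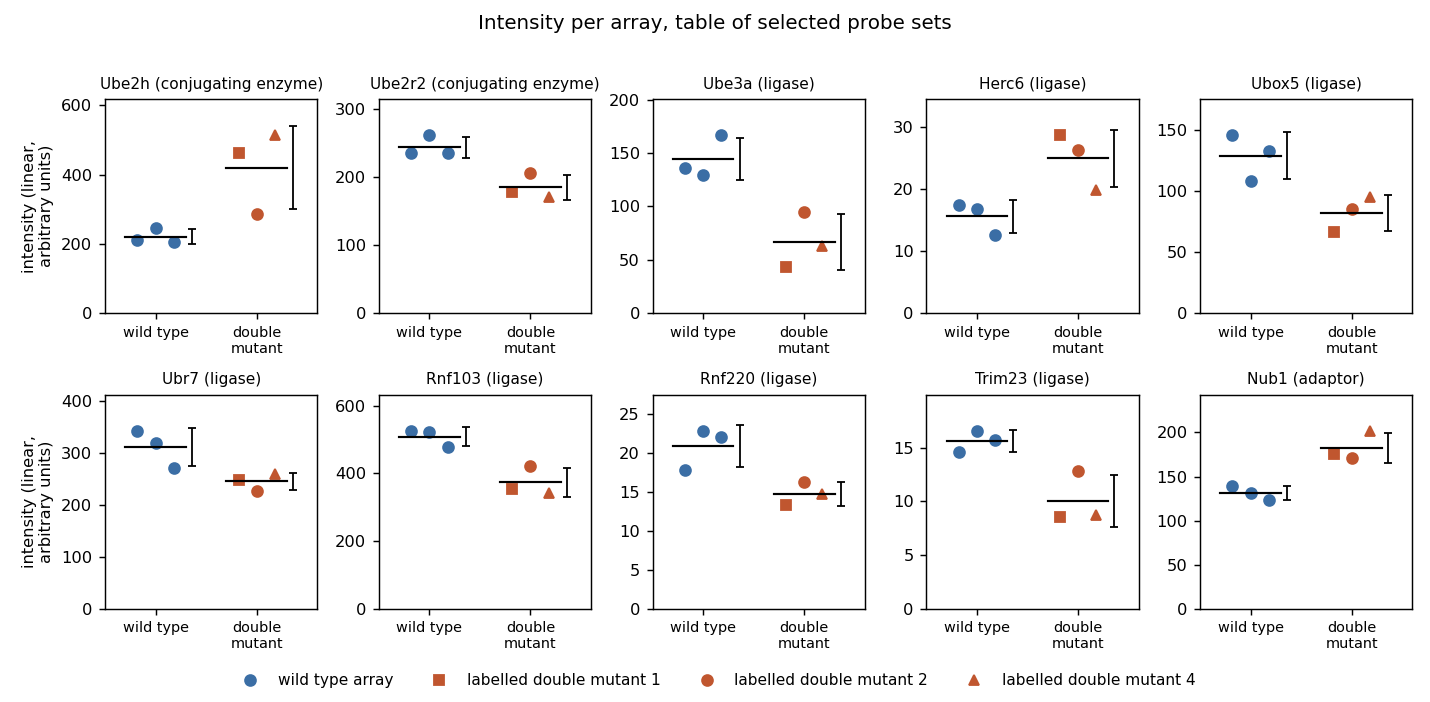
Linear intensity of the 10 genes on each array in the table of selected probe sets, with a separate vertical axis from 0 for each gene. Points are arrays, horizontal lines are group means and bars are 1 SD (n = 3); Ube2h, Herc6 and Nub1 lie higher in the double mutants and the other 7 lower.

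The conjugating enzymes went in opposite directions. Ube2h encodes the E2 that works with the CTLH ligase complex, the mammalian relative of the yeast GID complex. Its intensities in the table of selected probe sets were 210, 247 and 206 on the wild-type arrays and 462, 285 and 514 on the arrays labelled double mutant 1, 2 and 4. The group means were 221 ± 22.5 and 420 ± 120 (SD, n = 3). In the authors' deposited table Ube2h was 1.85-fold higher, with p = 0.0321. This p, like the others quoted from that table, comes from the authors' unpaired test and is unadjusted. Double mutant 2 lay close above the wild-type range, while those labelled double mutant 1 and 4 were far above it. The value table gave 98.1, 118.5 and 99.6 against 218.7, 131.4 and 218.8, with the arrays in the same pattern. The log2 difference there was 0.73 ± 0.27 (SE), and 0.62 without the array labelled double mutant 1; in the table of selected probe sets it was 0.89 and 0.80. The suffix of this probe set's name, x, is the manufacturer's mark for probes that also match other sequences, so its signal may not come from Ube2h alone.

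Ube2r2 encodes an E2 of the Cdc34 type, which extends ubiquitin chains together with cullin-RING ligases. Intensities were 235, 262 and 235 in wild type and 178, 206 and 171 in the double mutants, with means of 244 ± 15.2 and 185 ± 18.4 (SD, n = 3). The gap between the groups was narrow but present on every array, and double mutant 2 was again the nearest to wild type. In the authors' deposited table Ube2r2 was 1.32-fold lower with p = 0.0137. The groups also stayed apart in the value table, at 95, 94.5 and 85.3 against 60.2, 77.2 and 72.3. The log2 difference was -0.40 in the table of selected probe sets and -0.33 in the value table, and -0.38 and -0.24 without the array labelled double mutant 1.

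Of the 2 HECT-type ligases, Ube3a was lower and Herc6 higher. Ube3a encodes the founding HECT ligase, E6AP, whose maternal copy is the active one in neurons and is lost in Angelman syndrome. In the table of selected probe sets its wild-type intensities were 136, 130 and 167, and the arrays labelled double mutant 1, 2 and 4 had 42.8, 95.2 and 62.5. The means were 144 ± 19.9 and 66.8 ± 26.5 (SD, n = 3). The authors' deposited table gives it as 2.27-fold lower with p = 0.0283, the largest fold among the 10. The array labelled double mutant 1 had the lowest value. The value table showed the same order of the double mutants, at 10.1, 28.8 and 20.9 against 43.2, 47.5 and 54.1 in wild type. The log2 difference was -1.18 in the table of selected probe sets and -0.90 without the array labelled double mutant 1, and in the value table -0.87 and -0.66. The file aligns the probe set to 778 bases of chromosome 7, from 66535781 to 66536558 on the plus strand, on a genome build the file does not name. Snhg14, the long noncoding RNA that silences the paternal copy in neurons, overlaps Ube3a on the minus strand in RefSeq.

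Herc6, whose product is the main ligase for the interferon-induced modifier ISG15 in the mouse, was dim. Its intensities in the table of selected probe sets were 17.4, 16.8 and 12.6 in wild type and 28.7, 26.3 and 19.8 in the double mutants, a 1.6-fold higher level with p = 0.0362 in the authors' deposited table. In the value table the groups overlapped, with 6.4, 3 and 1 against 7, 10.5 and 0.7. The log2 difference there was 0.16, far under the 0.67 of the table of selected probe sets, and its lowest value on leaving out an array was 0.02, without double mutant 2. Its value without the array labelled double mutant 1 was 0.12 there and 0.56 in the table of selected probe sets. The value table therefore gives Herc6 no clear direction.

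The U-box and UBR-box ligases were both lower. Ubox5 encodes a nuclear U-box protein. Its intensities were 146, 108 and 133 in wild type and 66.1, 85.2 and 95.3 in the double mutants, with means of 129 ± 18.8 and 82.2 ± 14.8 (SD, n = 3). The authors' deposited table has Ubox5 as 1.57-fold lower, with p = 0.0308. The lowest wild-type array, wild type 4, and the highest double mutant, double mutant 4, were close to each other, and in the value table they were closer still, at 40.7 and 38.5. The other value-table intensities were 59.8 and 46 in wild type and 32.1 and 28 in the double mutants, and the log2 difference was -0.40. Dropping the array labelled double mutant 1 changed it to -0.39, and changed -0.65 to -0.51 in the table of selected probe sets.

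Ubr7 encodes a protein with a UBR box and a PHD finger that has been reported to ubiquitinate histone H2B in human cells. Intensities were 342, 319 and 271 in wild type and 248, 227 and 259 in the double mutants, and the authors' deposited table lists a 1.26-fold lower level with p = 0.0415, the smallest fold and the largest p of the 10. It therefore lay just inside the limits of that table. The groups overlapped in the value table, because double mutant 4, at 89.3, was above wild type 5, at 69.2. The log2 difference was -0.34 in the table of selected probe sets and -0.25 in the value table, and -0.35 and -0.14 without the array labelled double mutant 1.

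The 3 RING ligases were lower, but only Rnf103 was bright. Rnf103 encodes a RING ligase of the endoplasmic reticulum membrane. Intensities were 526, 522 and 477 in wild type and 355, 423 and 341 in the double mutants, with means of 508 ± 27.3 and 373 ± 43.9 (SD, n = 3). The authors' deposited table gives a 1.37-fold lower level with p = 0.0129. The value table gave 217.8, 184.1 and 197.5 against 111.2, 158.7 and 150.5, and the groups did not overlap in either table. The log2 difference was -0.45 in the table of selected probe sets and -0.48 ± 0.23 (SE) in the value table, and -0.42 and -0.34 without the array labelled double mutant 1.

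Rnf220 encodes a RING ligase known in the mouse neural tube for acting on Gli transcription factors, and Trim23 a tripartite motif ligase that carries a GTPase domain of the ARF type. Rnf220 intensities were 17.9, 22.9 and 22.1 in wild type and 13.3, 16.3 and 14.7 in the double mutants, 1.41-fold lower with p = 0.0236 in the authors' deposited table. In the value table they were 6, 9.5 and 7.6 against 0.2, 7.3 and 7.3, so the 2 other double mutants lay within the wild-type range and the array labelled double mutant 1 carried the difference. The log2 difference there was -0.20, and -0.02 without that array, which moved the table of selected probe sets only from -0.50 to -0.42. Trim23 intensities were 14.6, 16.6 and 15.7 in wild type and 8.54, 12.8 and 8.72 in the double mutants, 1.58-fold lower with p = 0.028 in the authors' deposited table. The value table kept the groups apart, at 10.4, 12.1 and 9.9 against 4.7, 5.1 and 7, with a log2 difference of -0.31, or -0.28 without the same array. Rnf220, Trim23 and Herc6 had means under the intensity of 100 that the design text asks for, in both groups and both tables. The Rnf220 probe set aligns to a stretch of 288 bases, at 116944073 to 116944360 on chromosome 4 in the file. The RefSeq gene spans 225590 bases and overlaps 4 noncoding genes. A stretch this short was not particular to Rnf220, as that of Ube2h was 297 bases.

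**Figure D2:**
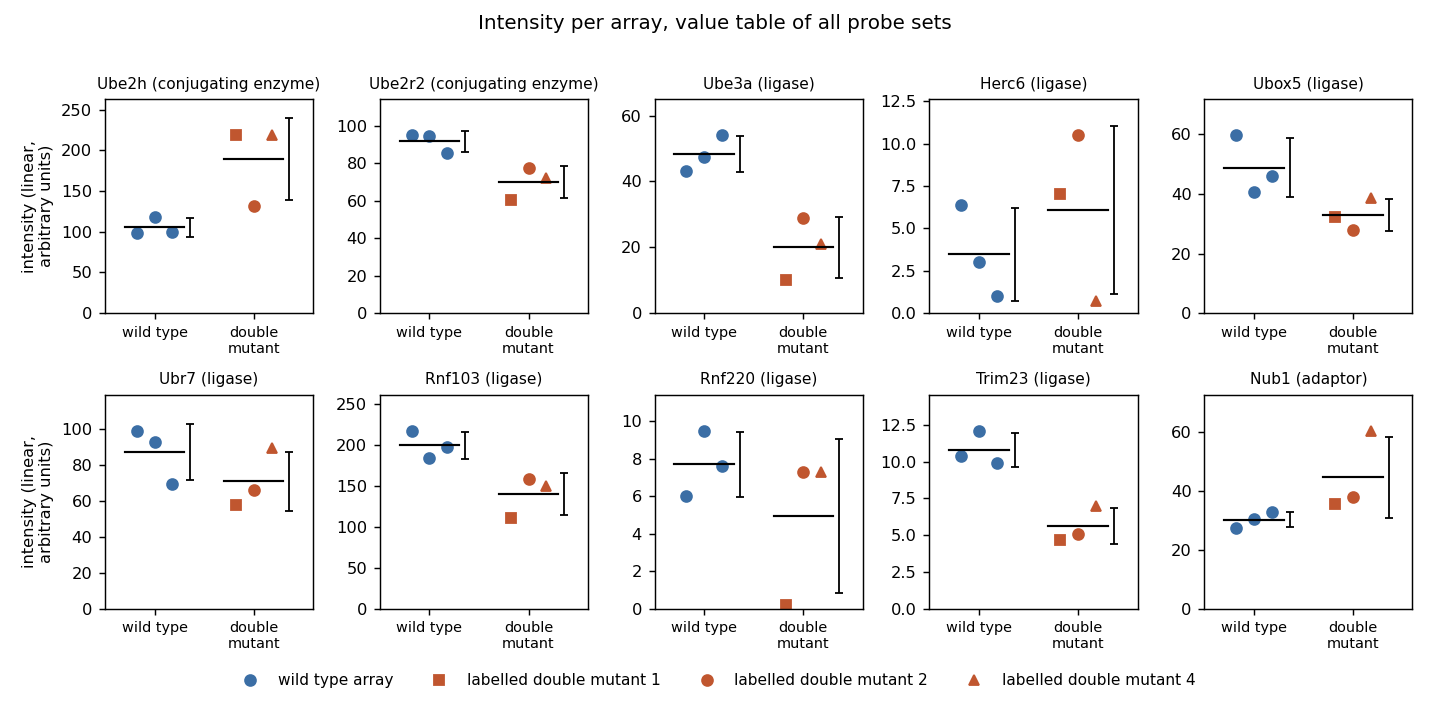
Linear intensity of the same 10 probe sets on each array in the value table, with a separate vertical axis from 0 for each gene. Points, lines and bars are as in the plot of the selected table; the groups overlap for Herc6, Ubr7 and Rnf220 and are apart for the other 7.

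Nub1, the adaptor, encodes a protein that binds NEDD8 and carries it and its conjugates to the proteasome. Its intensities were 139, 131 and 123 in wild type and 175, 171 and 202 in the double mutants, with means of 131 ± 8.4 and 183 ± 17 (SD, n = 3). The authors' deposited table lists Nub1 as 1.4-fold higher, and its p = 0.00656 is the smallest of the 10. The value table gave 27.5, 30.6 and 32.8 against 35.7, 37.9 and 60.5, with double mutant 4 well above the others. The log2 difference was 0.37 in the value table, 0.47 without the array labelled double mutant 1, but 0.19 when double mutant 4 was dropped. In the table of selected probe sets these values were 0.48, 0.51 and 0.41.

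Whether this probe set reads Nub1 was not settled by the files. They align it to the minus strand of chromosome 5, from 24202717 to 24210508, whereas RefSeq places Nub1 on the plus strand. Wdr86, a protein-coding gene on the minus strand, overlaps Nub1 by 13479 bases in RefSeq. For the other 9 genes the alignment and the RefSeq gene were on the same strand. Of 575 listed probe sets with 1 alignment and a RefSeq strand, 7 (1.22%) were on the opposite strand. Which strand's transcript gave the signal was not tested.

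In the value table all 10 genes kept the direction of the table of selected probe sets, 3 higher and 7 lower. By name 5 of the 6 columns are the same arrays in both tables, and the third wild-type column could not be matched, so the tables are not independent. Of all 45037 probe sets without controls, 42.8% were lower, and the median log2 difference was 0.04, beside -0.28 for the 10. The groups did not overlap for 7 of the 10, against 10.8% of all probe sets and 57.8% of the listed ones. The 2 higher among these 7 were Ube2h and Nub1, against 6.72% of all probe sets, and the 5 lower were Ube2r2, Ube3a, Ubox5, Rnf103 and Trim23, against 4.06%. Only Ube2h and Rnf103 passed the filter of a mean over 100 in either group, so 8 of the 10 were not among the 14446 probe sets tested. With limma, 0 probe sets of the 14446 (0%) passed an adjusted p of 0.05, the 2 included; 245 (1.7%) had an unadjusted p under 0.05, and the ordinary test per probe set gave 0 adjusted and 346 unadjusted. Without the array labelled double mutant 1, 9 of 13904 passed. The 10 genes then had a median of -0.19 beside 0.02 over all probe sets, with 3 higher and 7 lower. Only Herc6, Ubr7 and Rnf220, whose groups overlap with all arrays kept, could have changed direction. The groups did not overlap for 7 of the 10, against 20.7% of all probe sets and 67% of the listed ones.

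**Figure D3:**
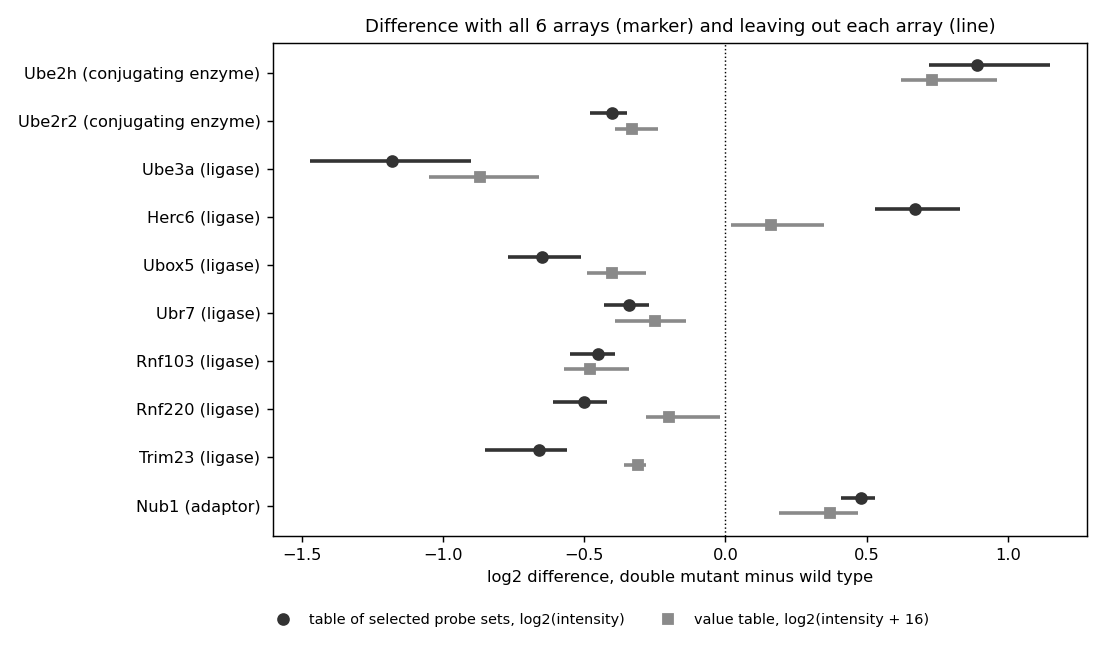
Log2 difference, double mutant minus wild type, of each gene in the table of selected probe sets (circles) and in the value table (squares, after adding 16 to each intensity). Lines run from the lowest to the highest value on leaving out 1 array. None crosses 0, which was fixed in advance where the groups do not overlap, for all 10 circles and 7 of the squares. The Herc6 and Rnf220 lines of the value table come nearest to 0, at 0.02 and -0.02.

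The design text of the series names 3 criteria for a regulated gene: p under 0.05 before any adjustment, more than 1.5-fold change, and an average intensity above 100 for at least one genotype. Ube2h, Ube3a and Ubox5 met them, 3 of 10, against 24.6% of the listed probe sets. Trim23 and Herc6 had folds of 1.58 and 1.6 in the authors' deposited table but were too dim, and Nub1, at 1.4, and Rnf103, at 1.37, were bright enough but under the fold. Leaving out an array left 0 to 2 of the 10 and 118 to 201 listed probe sets, which is 11.1% to 18.9% of these. Ube3a met the criteria when either the array labelled double mutant 1 or double mutant 2 was dropped, Ube2h without double mutant 2, and Ubox5 without wild type 4 and without double mutant 4. None of the 10 met them without the unnumbered wild-type array or without wild type 5.

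The double mutants differed in how far they lay from wild type. Double mutant 2 was the nearest of the 3 to the wild-type mean for 7 of the 10 genes in the table of selected probe sets (Ube2h, Ube2r2, Ube3a, Rnf103, Rnf220, Trim23 and Nub1), and over all listed probe sets it was the nearest for 47.6%. The array labelled double mutant 1 was the nearest for 0 of the 10 and 22.3% of the listed probe sets, and the farthest for 5 of the 10 and 51.9%. In the value table double mutant 2 was the nearest for 5 of the 10, against 36.5% of the listed probe sets and 56% of the 14446 tested. The array labelled double mutant 1 was the farthest there for 6 of the 10, against 51.1% of the listed and 81.9% of those tested.

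By position, 3 of the 10 probe sets align to chromosome 6 (Ube2h, Herc6 and Rnf103), which holds 6.31% of the listed probe sets, and 2 to chromosome 4 (Ube2r2 and Rnf220), which holds 4.81%. Herc6 was higher and Rnf103 lower, so the chromosome 6 genes did not share a direction.

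Other genes of the pathway were looked up by name from lists of 974 symbols. The table of selected probe sets names 22 of them, the 10 above and 12 others, of which 4 were higher and 8 lower. That table holds 2.35% of the probe sets of the array, with 60.8% of them higher and 39.2% lower. How many of the 974 symbols the array measures is not known, so the 22 are not read as many or few. Rnf180, a RING ligase of the endoplasmic reticulum membrane, had a larger fold than any of the 10, at 2.86-fold lower with p = 0.00177 in the authors' deposited table. Its intensities were 622, 466 and 619 in wild type and 163, 233 and 203 in the double mutants. The file does not annotate Rnf180 to protein ubiquitination, the term that the 10 genes share.

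Substrate adaptors of cullin ligases and deubiquitinating enzymes were also listed. Kbtbd8, a CUL3 adaptor known in human cells and frog embryos for neural crest specification, was 1.62-fold lower in the authors' deposited table, from 716 ± 160 to 436 ± 37 (SD, n = 3). Asb13, a SOCS-box protein of cullin ligases, was 1.51-fold lower in the authors' deposited table, and the F-box gene Fbxw17 was 1.49-fold higher. The deubiquitinating enzymes Usp4 and Usp2 were 1.56-fold and 1.42-fold lower in the authors' deposited table. Of the remaining RING ligases with the largest folds, Trim6 and Trim2 were 1.48-fold and 1.46-fold higher and Rnf150 was 1.46-fold lower in the authors' deposited table. All 12 others had the same direction in the value table. The groups overlapped for 6 of them (Asb13, Usp4, Rnf150, Rnf138, Trim6 and Zswim2) and did not for the other 6. Over all listed probe sets the groups did not overlap for 57.8%, and over all probe sets for 10.8%. Asb13, for example, had 293.9 on the array labelled double mutant 1, above 240.2 on wild type 1.

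No gene for a ubiquitin-activating enzyme (of 13 symbols), for ubiquitin and its shuttle proteins (of 41) or for the proteasome (of 52) is named in the table of selected probe sets. Since only selected probe sets carry names, this does not give the level of those genes, and how many listed symbols the array measures was not determined.

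**Figure D4:**
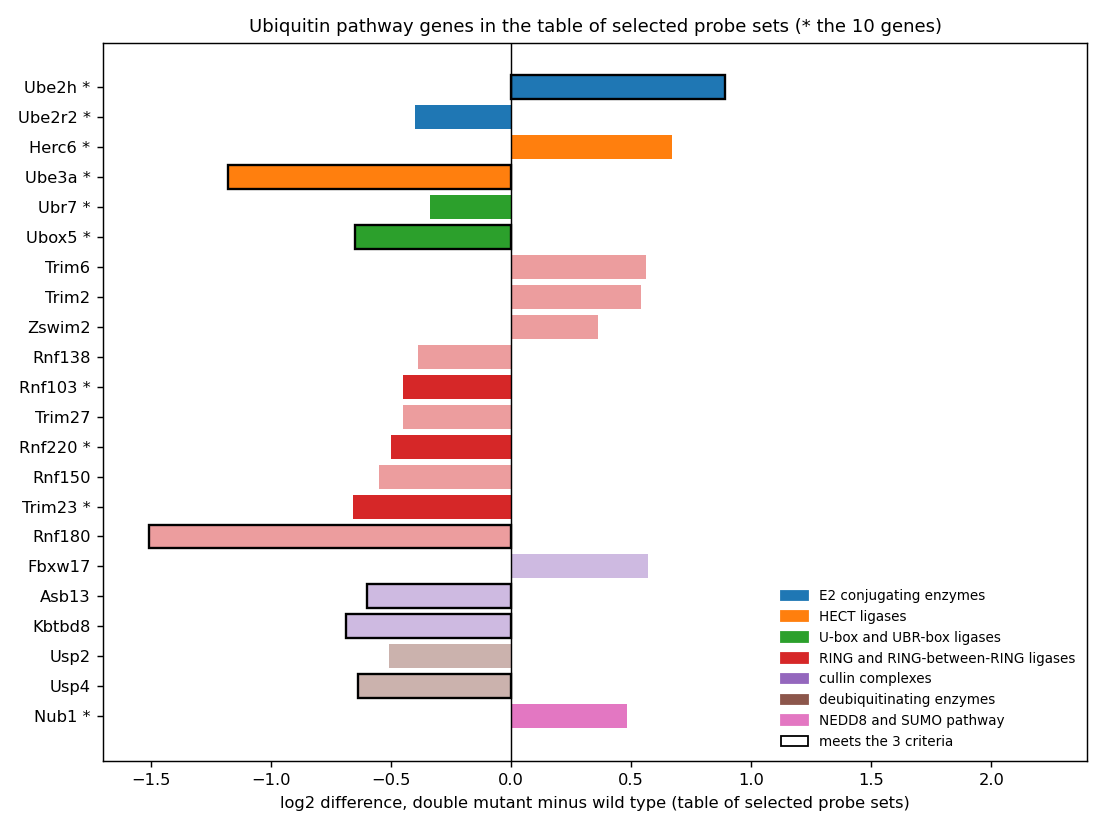
Log2 difference, double mutant minus wild type, of the 22 named ubiquitin pathway genes in the table of selected probe sets, coloured by role. Full-colour bars with an asterisk are the 10 genes described, paler bars are the 12 others, and outlined bars meet the 3 criteria; bars run from Rnf180, at -1.51, to Ube2h, at 0.89.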

How the data were processed

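Intensities were read from 2 deposited tables. The authors' value table holds linear intensities for 45101 probe sets, 64 of them controls; RMA is the tool named in the submitters' processing notes, but the values are linear and contain zeros, so their summarisation is not known. The authors' table of selected probe sets gives, per the file headers, unadjusted p-values of an unpaired test (limit 0.05) and an absolute fold ratio, kept above a limit, with linear intensities called raw; 6 other per-array columns of it were not used. One wild-type column carries a number that no sample title has and was used as unnumbered. Its p and fold were recomputed from log2 of the raw intensities and differed by at most 5.14e-07 and 1.63e-06.

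In the value table, 16 was added before taking log2, which understates differences of dim probe sets, and group differences of probe sets averaging over 100 in either group were tested with limma 3.58.1 (lmFit, eBayes; R 4.3.3), group alone, with Benjamini-Hochberg adjustment; the fit was tested on simulated data. With 3 arrays a group, exact permutation can reach no p under 0.1, and it was not run. Python 3.11.15, pandas 2.3.3, numpy 2.4.6, scipy 1.17.1 and matplotlib 3.10.9 were used otherwise. The number of arrays limits precision. Nothing beyond the labels' separate embryos says how replicates differ.

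The members and the gene lists were chosen with earlier results of these data known. Named are all 10 members, every other listed gene of the ubiquitin lists that meets the 3 criteria, and up to 3 more per list by fold. Promoter sequences and gene strands are RefSeq's, GRCm38.p6. Alternatives were pseudocounts, normalizations, filters, array weights, a replicate block and leaving out arrays.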

Additional observations from a re-analysis of the deposited data

How the results depend on the processing

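The count of the 10 genes higher in the double mutants stayed at 3 under the pseudocounts of 1 and 64, both normalizations, both filters, array weights and each array left out. It was 2 with the replicate block. Leaving out an array or changing the pseudocount could turn only Herc6, Ubr7 and Rnf220, whose groups overlap. The count without overlap was 7 to 9, against 7, and a pseudocount cannot change it. The filters could change neither count, because the differences were fitted on all probe sets. The share of all probe sets without overlap rose from 10.8% to between 16.7% and 25.7% on leaving out an array. The highest count, 9, came without double mutant 4, where the share was 25.7% of all probe sets and 68.2% of the listed ones. On leaving out an array the share of the listed ones ran from 63.3% to 68.2%, against 57.8% with all arrays. Sample titles share numbers 1 and 4 between the groups, while the columns of the table of selected probe sets share only number 4. The pair numbered 1 therefore rests on the titles alone. The deviations of same-numbered arrays correlated at 0.065 and -0.079, and those of differently numbered arrays at -0.095 to 0.14. With 3 arrays a group, this cannot settle whether the numbers pair the embryos. Wild type 5 and double mutant 2 have no partner by number. With the replicate block the group difference therefore rested on the arrays numbered 1 and 4. In that fit 2 probe sets passed the adjusted p, and Herc6 turned to -0.07. With array weights 1619 passed, the array labelled double mutant 1 having a weight of 0.0375 and double mutant 2 one of 20, and the log2 differences of Ube2h, Ube3a and Rnf103 became 0.26, -0.51 and -0.29. Leaving out an array gave 0 to 9. Of the 10, those meeting the 3 criteria numbered 0 to 2 on leaving out an array, 7 at the deposited table's own fold limit (43.4% of the listed probe sets) and 1, Ube3a, at a fold over 2 (10.3%). With a pseudocount of 1 the log2 differences of Ube3a, Rnf220, Trim23 and Herc6 were -1.34, -0.98, -0.85 and 0.47, and with 64 those of Ube3a and Trim23 were -0.42 and -0.10, as the added constant weighs most on low values. Of 180 recomputed differences of single genes, 170 moved by less than the spread between replicates. Most of the 180 left out 1 array, which shifts a mean of 3 by less than that spread, so those could not have moved further. The 9 that moved further and the 1 that reversed came from the pseudocounts, array weights and the replicate block.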
